A study of Mus musculus with 9 samples.

Results

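The interferon-stimulated effector genes encode the proteins that carry out the antiviral and antimicrobial part of the interferon response. A fixed list of 37 symbols was followed among 55906 genes measured in BV2, a mouse microglial cell line that was immortalized. The list held 4 IFIT, 6 OAS, 4 GBP, 3 immunity-related GTPase (IRG) and 2 MX genes, 5 sensors of foreign nucleic acid, Isg15 with its protease gene Usp18, and 11 other effectors. All 37 were found in the table. Those with at least 1 TPM (a transcript abundance per length, as a share of all transcripts of the library) in at least 3 of 9 libraries were tested, which was 27 members among 11260 genes, and 10 members were not tested.

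RNA sequencing covered 3 groups of 3 libraries of wildtype BV2 cells. The first group received lipopolysaccharide (LPS) plus Pilo, a name the labels do not explain (LPS+Pilo), the second LPS alone, and the third, Control, has no treatment named. LPS is a bacterial endotoxin sensed by the receptor TLR4. The sample titles call the replicates biological. The sources used here state no dose or time, and do not say that replicates were separate cultures. The p-values thus measure the spread between these libraries, which may be technical. In such bulk samples, fewer cells of a type and less RNA per cell cannot be told apart.

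Type I interferon binds a receptor made of Ifnar1 and Ifnar2, whose kinases phosphorylate transcription factors such as Stat2. With Irf9 these form a complex that binds the interferon-stimulated response element (ISRE) in promoters, whereas interferon gamma acts through the gamma-activated site (GAS). In macrophages and microglia, LPS is known to induce interferon beta through TLR4, and secreted interferon then switches on these effectors.

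Promoter windows from RefSeq (build GRCm38.p6, 250 bases before to 50 bases after the start of each gene) were available for 27 of the 37 members. The table used here had none for Rtp4, Ifi204, Dhx58, Oas2, Iigp1, Mx2, Mx1, Parp14, Zbp1 and Usp18. The ISRE core searched here, on both strands, is a GAAA followed by any 2 bases and another GAAA, and it stood in 19 of the 27 promoters (70.4%), against 3.99% of 27025 genes with a window. The GAS core TTCNNNGAA stood in 9 (33.3%), against 9.55% of those genes. All 4 GBP promoters held an ISRE core, as did 3 of 4 IFIT, 3 of 5 OAS and 2 of 2 IRG promoters in the table. The sequences below are the 160 bases just before the start, printed 5′ to 3′ on the strand of the gene, with ISRE matches in capitals. They show the OAS pair and the ISG15 and Bst2 genes that passed the test with LPS, an IFIT and an IRG gene that did not, and a GBP gene just below the level needed for a test.
Isg15, chr4:156200819-156200978, minus strand: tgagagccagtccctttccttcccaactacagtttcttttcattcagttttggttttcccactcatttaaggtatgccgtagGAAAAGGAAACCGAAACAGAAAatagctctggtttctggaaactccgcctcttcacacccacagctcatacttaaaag
Bst2, chr8:71537473-71537632, minus strand: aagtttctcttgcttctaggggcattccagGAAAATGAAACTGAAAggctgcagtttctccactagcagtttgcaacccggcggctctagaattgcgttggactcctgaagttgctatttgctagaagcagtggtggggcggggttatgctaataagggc
Oas1a, chr5:120907526-120907685, minus strand: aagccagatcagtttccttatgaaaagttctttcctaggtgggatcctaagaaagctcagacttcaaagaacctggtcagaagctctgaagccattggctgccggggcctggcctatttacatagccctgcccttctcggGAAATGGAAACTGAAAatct
Oas1g, chr5:120887614-120887773, minus strand: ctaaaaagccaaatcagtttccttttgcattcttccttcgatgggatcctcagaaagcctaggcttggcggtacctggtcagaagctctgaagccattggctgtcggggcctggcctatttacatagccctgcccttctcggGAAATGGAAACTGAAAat
Ifit3, chr19:34583369-34583528, plus strand: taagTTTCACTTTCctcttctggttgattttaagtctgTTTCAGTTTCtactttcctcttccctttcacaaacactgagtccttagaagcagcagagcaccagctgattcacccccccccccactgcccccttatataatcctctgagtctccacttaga
Igtp, chr11:58199396-58199555, plus strand: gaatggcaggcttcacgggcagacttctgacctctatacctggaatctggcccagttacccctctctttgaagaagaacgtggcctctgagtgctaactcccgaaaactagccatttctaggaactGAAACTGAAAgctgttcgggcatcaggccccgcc
Gbp7, chr3:142530176-142530335, plus strand: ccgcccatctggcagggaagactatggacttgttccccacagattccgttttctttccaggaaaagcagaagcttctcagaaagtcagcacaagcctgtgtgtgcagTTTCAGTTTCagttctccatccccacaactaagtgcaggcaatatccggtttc

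In Isg15 the matches overlapped in 1 run, the first beginning 78 bases before the start, and in Bst2 the run began 130 bases before it and overlapped a GAS core that began 136 bases before it. Oas1a and Oas1g lie side by side on chromosome 5, and their 250-base upstream windows were identical at 212 of 256 aligned positions (82.8%). In both, the run lay next to the start, 20 and 18 bases before it. Ifit3 held 2 separate matches on the opposite strand, 156 and 122 bases before the start. Igtp and Gbp7 held 1 match each, 34 and 53 bases before the start. The core was in 4 of the 6 members with a window that were called with LPS, in 9 of 14 that were tested and did not pass, and in 6 of 7 that were too low to test. A match describes letters in this window and is no evidence of binding.

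The cells carried most markers of the microglia and macrophage list. Of 10 such markers, 8 averaged at least 1 TPM, while Aif1 (0.07 to 1.36 TPM) and P2ry12 (0 to 0.40 TPM) were low. Levels among the 8 differed widely. Cd68 had 976 to 1219 TPM, while Tmem119 had 2.15 to 3.05 TPM and Cx3cr1 1.04 to 4.57 TPM. All 4 T and NK cell markers were listed at 0, and all astrocyte, endothelial and fibroblast markers averaged below 0.5 TPM. The neuronal tubulin gene Tubb3 reached 164 to 457 TPM, but Rbfox3, Snap25 and Syt1 were listed at 0. Of 4 oligodendrocyte markers 1 averaged at least 1 TPM, and so did 2 of 4 plasmacytoid dendritic markers: Siglech and Ccr9 stayed at or below 0.05 TPM, while Tcf4 had 4.46 to 10.13 TPM and Bst2, itself a member, 252 to 653 TPM. Summed neuronal markers, nearly all Tubb3, ranged over 383 to 457 TPM in LPS+Pilo, 306 to 403 TPM in LPS and 164 to 367 TPM in Control. The summed microglia list ranged over 1364 to 1428 TPM in LPS+Pilo, 1416 to 1508 TPM in LPS and 1552 to 1691 TPM in Control, and the part of either list in the results was not tested. The libraries of a group were spread along a second principal component. LPS replicate 3 lay at 21.5, against -16.0 and -18.4 for LPS replicates 1 and 2, and Control replicate 1 lay at -34.0, against 17.7 and 2.29 for Control replicates 2 and 3. The LPS+Pilo libraries lay closer together, at 3.3, 12 and 11.6.

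The members spanned a wide range of levels. Bst2, encoding tetherin, which holds budding virus particles on the cell surface, was the highest at 252 to 653 TPM. Oasl1, Oas1g, Oas1a, Isg15, Ifi35 and Usp18 followed, with means above 50 TPM in every group. The IFIT genes lay at 1.26 to 4.29 TPM except Ifit3b, and no GBP gene exceeded 1.04 TPM. Summed over all 37, the members took 1658, 1483 and 1704 TPM in the LPS+Pilo libraries, 2026, 1773 and 1457 TPM in the LPS libraries, and 1211, 811.5 and 1178 TPM in the Control libraries. Every treated library lay above every Control library in this sum, and LPS replicate 3 lay below all LPS+Pilo libraries.

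**Figure D1:**
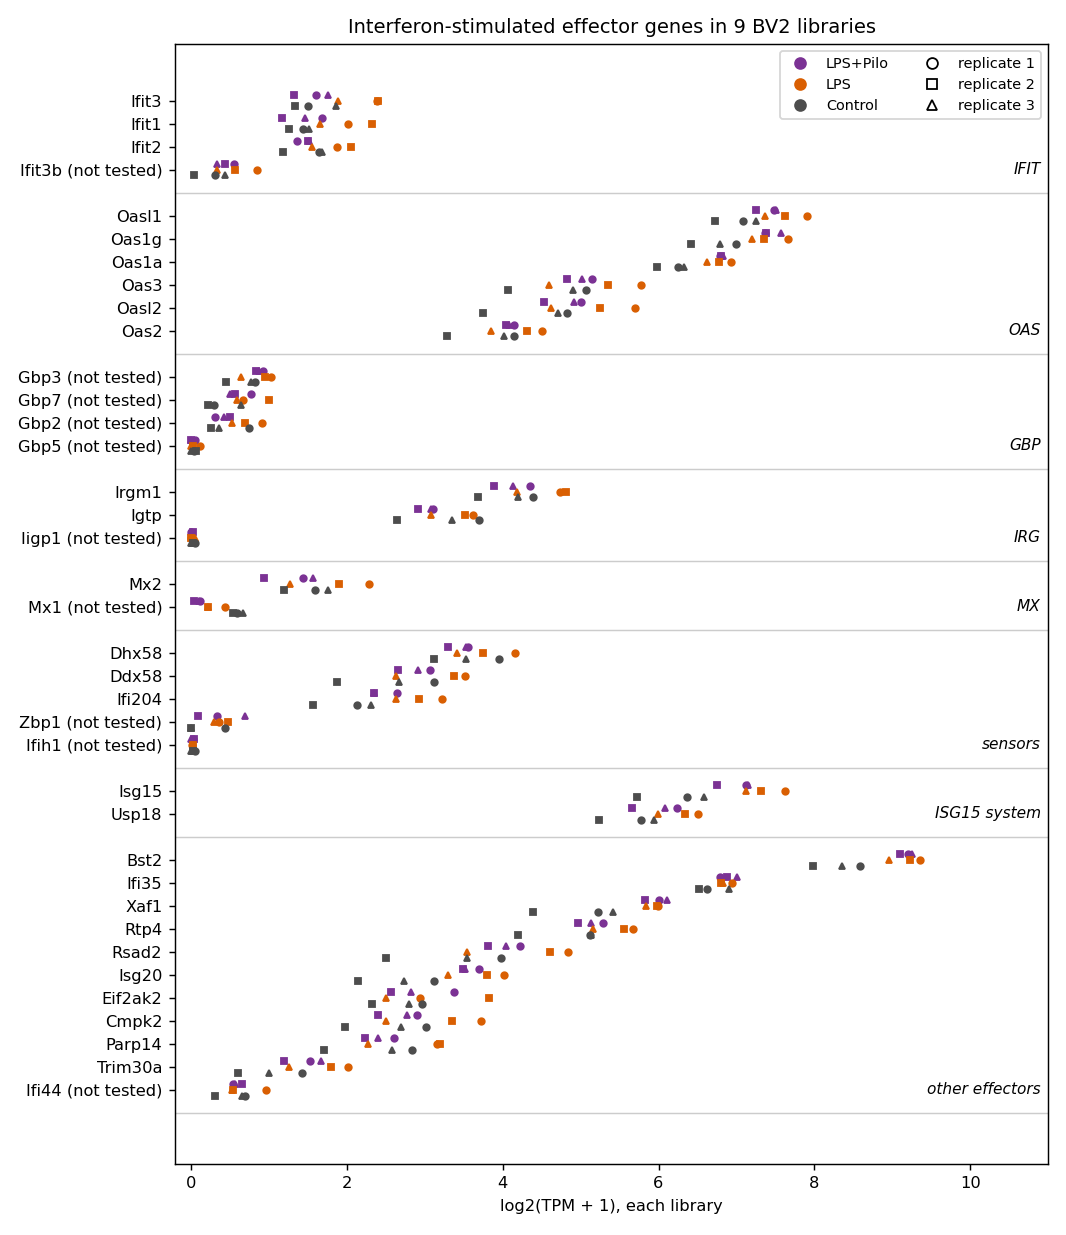
Level of each of the 37 members in every library on the log2(TPM + 1) scale (horizontal axis), by subfamily or role, with LPS+Pilo, LPS and Control in purple, orange and grey and replicates as circles, squares and triangles. Members span the range of Gbp5 and Iigp1 near 0 to Bst2 at 252 to 653 TPM, and the grey square of Control replicate 2 is the lowest Control point of all 27 tested members.

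The first comparison asked how LPS changed the effector genes. It raised 7 of the 27 tested members and lowered 0, beside 4.12% of all tested genes called higher and 3.64% called lower (limma on log2(TPM + 1), adjusted p under 0.05 over 11260 genes). The 7 were Isg15, Oas1a, Oas1g, Ifi204, Isg20, Bst2 and Xaf1. Over all genes, 464 were higher and 410 lower, and with quantile normalization 614 and 902. Log2 fold changes were above 0 for 27 of 27 members, against 58.9% of all genes, with a median of 0.63 (range 0.17 to 1.13) against 0.07 for all genes. The LPS and Control libraries did not overlap for 12 of the 27, all higher in LPS, against 11.2% of all genes, and 15 had an unadjusted p under 0.05, against 22.7%.

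How many members passed depended on single libraries, as did the count over all genes. Without LPS+Pilo replicates 1, 2 and 3 in turn, 3, 3 and 4 members passed, beside 711, 710 and 659 genes in all. Without LPS replicates 1, 2 and 3 it was 2, 3 and 10 members, beside 507, 466 and 1020 genes. Without Control replicates 1, 2 and 3 it was 7, 4 and 5 members, beside 998, 552 and 414 genes. The main fit had 7 members and 874 genes. Leaving out an LPS+Pilo library left the log2 fold changes as they were (Oas1g 0.675, Ifi204 0.926, Isg20 1.04 and Xaf1 0.928). It changed the estimate of spread shared by the groups. Oas1a and Bst2 passed in all 20 alternatives, with adjusted p in limma of at most 0.0495 and 0.0388. Isg15 lost its call without LPS replicate 1 (adjusted p = 0.0538) and in no other of its 20 alternatives. Oas1g lost its call without LPS+Pilo replicate 1 or 2 (limma adjusted p = 0.0510 and 0.0537), without LPS replicate 1 or 2 (0.101 and 0.0844) and without Control replicate 2 or 3 (0.0823 and 0.0873), and also without the variance trend (0.0503). For Ifi204 the libraries were LPS+Pilo replicates 1, 2 and 3 (limma adjusted p = 0.0522, 0.0597 and 0.0601), LPS replicates 1 and 2 (0.121 and 0.102) and Control replicate 2 (0.0947). For Isg20 they were LPS+Pilo replicates 1, 2 and 3 (limma adjusted p = 0.0601, 0.0638 and 0.0632), LPS replicates 1 and 2 (0.125 and 0.120) and Control replicates 2 and 3 (0.0903 and 0.102). For Xaf1 they were LPS+Pilo replicates 1, 2 and 3 (limma adjusted p = 0.0589, 0.0558 and 0.0567) and LPS replicates 1, 2 and 3 (0.102, 0.111 and 0.0516). Without LPS replicate 3, the members Ifit1 (limma adjusted p = 0.0462), Ifit3 (0.0398), Oasl1 (0.0268) and Rsad2 (0.0488) passed as well. With no filter on low values, and with only the LPS and Control libraries fitted, Oas1g, Ifi204, Isg20 and Xaf1 did not pass (limma adjusted p of 0.0801 to 0.0938 and 0.0898 to 0.112).

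**Figure D2:**
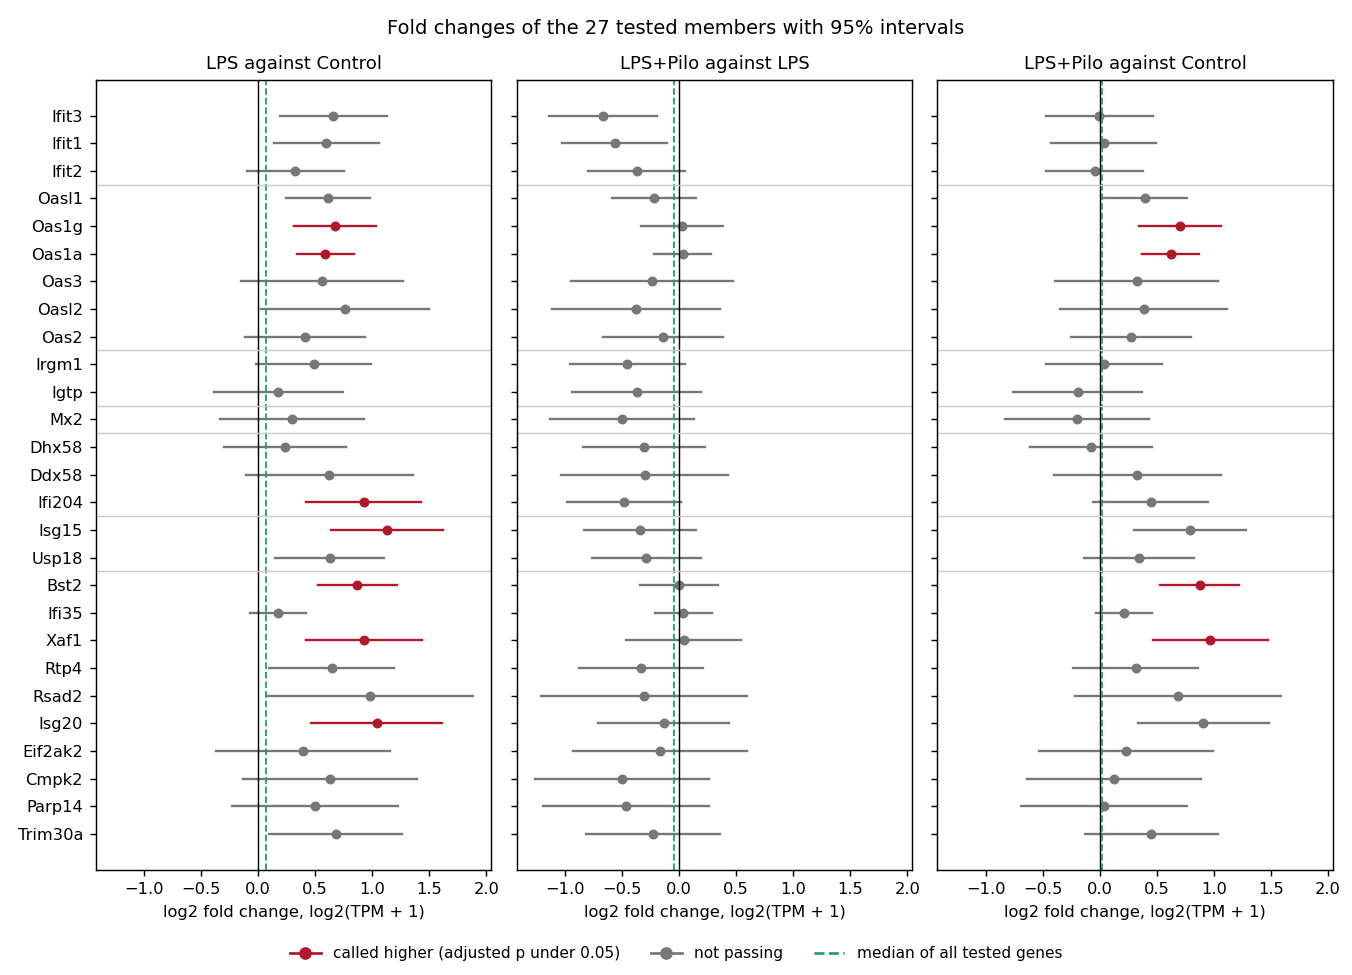
Log2 fold changes of the 27 tested members on the log2(TPM + 1) scale (horizontal axes) with 95% intervals of the limma fit as bars, in the 3 comparisons; red marks members called higher and the dashed line the median of all 11260 tested genes. All points lie right of 0 in LPS against Control, 22 of 27 lie left of 0 in LPS+Pilo against LPS, and 4 are red in LPS+Pilo against Control.

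Isg15 encodes a ubiquitin-like protein that is attached to other proteins and also secreted. It had 196, 158 and 138 TPM in the LPS libraries, against 81.3, 51.8 and 94.5 TPM in the Control libraries. The groups did not overlap, and its log2 fold change of 1.13 ± 0.22 (SE, n = 3 per group) was the largest among the tested members (limma adjusted p = 0.0132). Usp18, which removes ISG15 from proteins and dampens signalling at the interferon receptor, had 89.8, 79.9 and 62.9 TPM with LPS, against 53.6, 36.7 and 60.7 TPM in Control. Its groups also did not overlap, by the narrow gap between LPS replicate 3 and Control replicate 3, and the difference of 0.63 ± 0.21 did not pass (limma adjusted p = 0.115).

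Active enzymes of the OAS family make short oligoadenylates when they bind double-stranded RNA, and these activate RNase L. Of the 6 OAS family genes, 2 rose with LPS. Oas1a had 121, 108 and 97.6 TPM in the LPS libraries, against 75.2, 62.0 and 79.0 TPM in the Control libraries. Oas1g had 202, 163 and 146 TPM with LPS, against 126, 84.6 and 109.8 TPM in Control. Neither gene overlapped between the groups, and the log2 fold changes were 0.59 ± 0.11 and 0.68 ± 0.16 (SE; limma adjusted p = 0.0117 and 0.0315). The neighbours share sequence: 40.9% of the 100-base words of Oas1a transcripts and 31.2% of those of Oas1g in GENCODE M21 also occur elsewhere, mainly in each other, so the split of reads between them is uncertain. Oasl1, which in mice limits translation of Irf7, had the highest mean of the OAS genes over the 9 libraries. It had 239, 196 and 164 TPM with LPS, against 134, 105 and 152 TPM in Control, with no overlap and a fold change of 0.61 ± 0.17 that just missed the threshold (limma adjusted p = 0.0535). It passed with median-of-ratios scaling (0.0335), quantile normalization (0.0333), robust variance moderation (0.0451), the replicate block (0.0473) and without LPS replicate 3 (0.0268), as limma adjusted p. Oas2, Oas3 and Oasl2 overlapped between the groups, with log2 fold changes of 0.41, 0.56 and 0.76 that did not pass. They also had the wider spread: the SE of Oas3 and Oasl2 was 0.32 and 0.33.

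IFIT proteins bind foreign RNA ends and block their translation. None of the 3 tested genes passed with LPS, although 2 had an unadjusted p under 0.05, at log2 fold changes of 0.33 to 0.66 and adjusted p of 0.0951 to 0.343 in limma. Ifit3 had 4.25, 4.29 and 2.71 TPM in the LPS libraries, against 1.84, 1.52 and 2.65 TPM in the Control libraries. Ifit1 had 3.05, 4.02 and 2.17 TPM with LPS, against 1.72, 1.39 and 1.86 TPM in Control. For both, the lowest LPS library lay just above the highest Control library, and for Ifit2 the groups overlapped. Ifit3b stayed below the level needed for a test, at 0.26 to 0.81 TPM with LPS and 0.03 to 0.36 TPM in Control. Of the Ifit3 transcript words, 31.7% occur elsewhere, mainly in Ifit3b, so these genes are uncertain too.

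GBP and IRG proteins are GTPases that attack the vacuoles of intracellular pathogens, and both families are known as strong targets of interferon gamma in mouse macrophages. No GBP gene reached the level needed for a test. Gbp3 had 1.04, 0.94 and 0.57 TPM in the LPS libraries, against 0.77, 0.37 and 0.71 TPM in Control, and Gbp7 had 0.60, 1.00 and 0.51 TPM, against 0.23, 0.17 and 0.57 TPM. Each thus reached 1 TPM in 1 library and lay just outside the filter, while Gbp2 stayed at or below 0.89 TPM and Gbp5 at or below 0.09 TPM. Irgm1, a regulatory IRG protein, had 25.7, 27.1 and 17.1 TPM with LPS, against 19.9, 11.8 and 17.4 TPM in Control. Here LPS replicate 3 lay inside the Control range, and the log2 difference of 0.49 ± 0.23 did not pass (limma adjusted p = 0.238). Igtp, the other regulatory member tested, had a difference of 0.18 ± 0.25, and Iigp1, an effector IRG protein, was at most 0.04 TPM in every library.

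Among the sensors, Ifi204, a DNA-binding protein of the interferon-inducible p200 family, rose with LPS. It had 8.32, 6.64 and 5.22 TPM in the LPS libraries, against 3.38, 1.97 and 3.96 TPM in Control, without overlap, and a log2 fold change of 0.93 ± 0.22 (limma adjusted p = 0.0350). Of its transcript words, 10.7% occur elsewhere, mainly in its paralog Ifi211. Dhx58, which encodes LGP2 and is the most abundant sensor tested, had 16.9, 12.4 and 9.64 TPM with LPS, against 14.5, 7.74 and 10.6 TPM in Control, and the groups overlapped. Ddx58, encoding the RNA sensor RIG-I, had a log2 difference of 0.63 ± 0.33 that did not pass, also with overlap. Ifih1, encoding MDA5, the sensor of long double-stranded RNA, was at most 0.04 TPM in any library, and Zbp1, a sensor of Z-form nucleic acid, lay at 0 to 0.62 TPM.

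Of the other effectors, Bst2, Xaf1 and Isg20 rose with LPS. Bst2 had 653, 598 and 495 TPM in the LPS libraries, against 384, 252 and 326 TPM in Control, a log2 fold change of 0.87 ± 0.15 (limma adjusted p = 0.00826). Xaf1, whose product binds the apoptosis inhibitor XIAP, had 62.5, 62.4 and 56.5 TPM, against 36.3, 20.03 and 41.8 TPM, a change of 0.93 ± 0.22 (limma adjusted p = 0.0350). Isg20, a 3′ exonuclease that degrades RNA, had 15.2, 12.9 and 8.87 TPM, against 7.68, 3.42 and 5.67 TPM, a change of 1.04 ± 0.26 (limma adjusted p = 0.0371). In all of these, the lowest LPS library exceeded the highest Control library. Rsad2, encoding viperin, and its chromosomal neighbour Cmpk2, a nucleotide kinase gene, had log2 differences of 0.98 ± 0.40 and 0.63 ± 0.34, and neither passed. Rtp4, Eif2ak2 (the kinase PKR), Ifi35, Parp14 and Trim30a did not pass either, at 0.17 to 0.68. Trim30a and Mx2 were the tested members with the fewest libraries at 1 TPM, 8 of 9 each. Trim30a had 3.05, 2.49 and 1.40 TPM with LPS, against 1.70, 0.53 and 1.00 TPM in Control, and Mx2, a dynamin-like GTPase gene, had 3.87, 2.73 and 1.41 TPM, against 2.02, 1.29 and 2.39 TPM. Both genes overlapped between the groups. Ifi44 (0.24 to 0.96 TPM) and Mx1 (0.03 to 0.59 TPM) were below the level needed for a test in all libraries.

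The second comparison asked what Pilo changed in LPS-treated cells. Of the 27 tested members 0 passed (limma), beside 0.0444% of all tested genes, which was 5 genes. Log2 differences were below 0 for 22 of the 27, against 60.3% of all genes, with a median of -0.30 (range -0.67 to 0.04) against -0.05 for all genes. An unadjusted p under 0.05 was reached by 2 members, Ifit1 and Ifit3, which is a share near the 6.76% of all genes. The groups did not overlap for 2 members, Ifit2 and Ifit3, both lower in LPS+Pilo, against 6.63% of all genes. None of the 20 alternatives called a member in either direction in this comparison.

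Ifit3 and Ifit1 had the lowest log2 differences of the tested members in LPS+Pilo relative to LPS. Ifit3 had 2.04, 1.51 and 2.39 TPM in the LPS+Pilo libraries, against 4.25, 4.29 and 2.71 TPM in the LPS libraries, and Ifit2 had 1.57, 1.84 and 1.86 TPM, against 2.68, 3.16 and 1.94 TPM. Both gaps were narrow, set by LPS replicate 3. Ifit1 had 2.21, 1.26 and 1.76 TPM with LPS+Pilo, against 3.05, 4.02 and 2.17 TPM with LPS, and LPS+Pilo replicate 1 overlapped LPS replicate 3. The log2 differences were -0.67 for Ifit3 (95% interval -1.14 to -0.20; limma adjusted p = 0.530), -0.56 for Ifit1 (-1.02 to -0.10; 0.598) and -0.37 for Ifit2 (-0.80 to 0.06; 0.771). At these levels of a few TPM the added 1 TPM shrinks the differences: with a pseudocount of 0.1 the median of the 3 was -0.78, against -0.56 with 1.

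Bst2, Oas1a and Xaf1, which had risen with LPS, had near-equal means in LPS+Pilo and LPS. Bst2 had 588, 547 and 606 TPM in the LPS+Pilo libraries, against 653, 598 and 495 TPM in the LPS libraries, a difference of 0.00 (95% interval -0.34 to 0.35). Oas1a had 109.7, 110.5 and 113 TPM, against 121, 108 and 97.6 TPM, a difference of 0.03 (-0.22 to 0.28). Xaf1 had 63.3, 55.9 and 68.0 TPM, against 62.5, 62.4 and 56.5 TPM, a difference of 0.04 (-0.46 to 0.55). In each, the LPS+Pilo libraries lay within or beside the LPS range, and the intervals leave room for a change in either direction. Isg15 had 138, 107 and 141 TPM with LPS+Pilo, against 196, 158 and 138 TPM with LPS, a difference of -0.34 (-0.83 to 0.15). Ifi204 had 5.26, 4.11 and 4.09 TPM, against 8.32, 6.64 and 5.22 TPM, a difference of -0.48 (-0.98 to 0.02). For both, 1 LPS+Pilo library or more overlapped LPS replicate 3. Without LPS replicate 3, the differences turned negative for Bst2, Oas1a, Oas1g and Xaf1 (-0.11, -0.04, -0.08 and -0.006). For the remaining members, the differences ran over -0.50 for Cmpk2 to 0.04 for Ifi35.

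Relative to Control, LPS+Pilo raised 4 of the 27 members and lowered 0, beside 4.85% of all tested genes called higher and 5.3% called lower. These were Bst2 (log2 fold change 0.87 ± 0.15, limma adjusted p = 0.00659), Oas1a (0.62 ± 0.11, 0.00705), Oas1g (0.70 ± 0.16, 0.0217) and Xaf1 (0.97 ± 0.22, 0.0238). Oas1g had 163, 165 and 188 TPM in the LPS+Pilo libraries, against 126, 84.6 and 109.8 TPM in the Control libraries. None of the 4 overlapped between the groups. Isg15 and Isg20 just missed, at 0.79 ± 0.22 and 0.91 ± 0.26 (limma adjusted p = 0.0505 and 0.0534). Isg20 had 12.02, 10.3 and 10.49 TPM with LPS+Pilo, against 7.68, 3.42 and 5.67 TPM in Control, and did not overlap. In all, the groups did not overlap for 7 members, all higher, against 14.9% of all genes. The median over the members was 0.32, against 0.02 for all genes, and 22 of 27 lay above 0, against 52.9% of all genes.

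Calls in this comparison also turned on single libraries. The count was 2 without LPS+Pilo replicate 1, 2 or 3 in turn, beside 735, 663 and 692 genes in all. It was 6 without LPS replicate 3, beside 1286 genes, against 4 and 1143 in the main fit. Leaving out an LPS library left the log2 fold changes as they were (Isg15 0.788 and Isg20 0.908) and changed the shared estimate of spread. Bst2 and Oas1a passed in all 20 alternatives, with limma adjusted p of at most 0.0304 and 0.0319. Oas1g lost its call without LPS+Pilo replicate 1, 2 or 3 (limma adjusted p = 0.0543, 0.0624 and 0.0856) and without Control replicate 2 or 3 (0.0539 and 0.0592). Xaf1 lost its call without LPS+Pilo replicate 1, 2 or 3 (limma adjusted p = 0.0766, 0.0565 and 0.0891). With no filter neither passed (0.0612 and 0.0702), and Xaf1 did not pass with only the LPS+Pilo and Control libraries fitted (0.0516). With median-of-ratios scaling Isg15 and Isg20 passed as well (0.0255 and 0.0137), as they did with quantile normalization (0.0424 and 0.00939) and the replicate block (0.0284 and 0.0359), and Isg20 passed with robust variance moderation (0.0473), all as limma adjusted p. Isg15 passed without LPS replicate 3 (0.0483) or Control replicate 3 (0.0377), and Isg20 passed without LPS replicate 3 (0.0342) or Control replicate 1 (0.0192), as limma adjusted p.

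Side by side, the subfamilies had these medians of log2 fold change over their tested members, where LPS against Control and LPS+Pilo against LPS share the LPS libraries and the comparisons with Control share the Control libraries. For the 3 IFIT genes the median was 0.60 in LPS against Control, -0.56 in LPS+Pilo against LPS and -0.01 in LPS+Pilo against Control. For the 6 OAS genes the medians were 0.60, -0.18 and 0.39 in the same comparisons. For the 2 IRG genes they were 0.33, -0.41 and -0.08. The added 1 TPM shrinks differences of genes at a few TPM, such as the IFIT genes. With a pseudocount of 0.1 the medians in LPS against Control were 0.82 for IFIT, 0.61 for OAS and 0.36 for IRG. The IFIT and IRG medians in LPS+Pilo against Control were thus near 0 and the OAS median was above it, but no test of the difference between subfamilies was made. Single libraries moved these medians: the OAS median in LPS+Pilo against LPS was 0.02 without LPS replicate 1, and without Control replicate 2 the OAS median in LPS+Pilo against Control was 0.15 and the IRG median in LPS against Control 0.08. In LPS+Pilo against Control the IFIT median ran over -0.12 to 0.11 and the IRG median over -0.33 to 0.11 with 1 library left out. Summed OAS level was 532.8, 491.7 and 559.2 TPM in LPS+Pilo, 688.9, 563.0 and 468.2 TPM in LPS, and 411.8, 288.6 and 409.9 TPM in Control. The summed IFIT level was 6.29, 4.97 and 6.27 TPM in LPS+Pilo, 10.8, 11.95 and 7.08 TPM in LPS, and 5.92, 4.21 and 7.09 TPM in Control. LPS+Pilo libraries thus exceeded all Control libraries in the OAS sum and overlapped them in the IFIT sum. Oasl1, Oas1g and Oas1a made up most of the OAS sum. Taken singly, Oas1a and Oas1g were clear of Control in LPS+Pilo, while Oas2, Oas3, Oasl1 and Oasl2 overlapped it.

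Within a group, the members were high or low in the same libraries. Control replicate 2 was the lowest Control library for 27 of 27 tested members, and LPS replicate 3 the lowest LPS library for 26, with Ifi35 the exception. LPS+Pilo replicate 2 was the lowest of its group for 22. The highest LPS library was replicate 1 for 21 members and replicate 2 for 6. Relative to the group mean, the members' median deviation was -0.17 in LPS+Pilo replicate 2, -0.34 in LPS replicate 3 and -0.42 in Control replicate 2 on the log2(TPM + 1) scale. The medians over all genes went the same way in these libraries and were smaller, at -0.04, -0.15 and -0.12. The upstream factor Irf7 deviated by -0.04 in LPS+Pilo replicate 2, -0.40 in LPS replicate 3 and -0.69 in Control replicate 2.

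**Figure D3:**
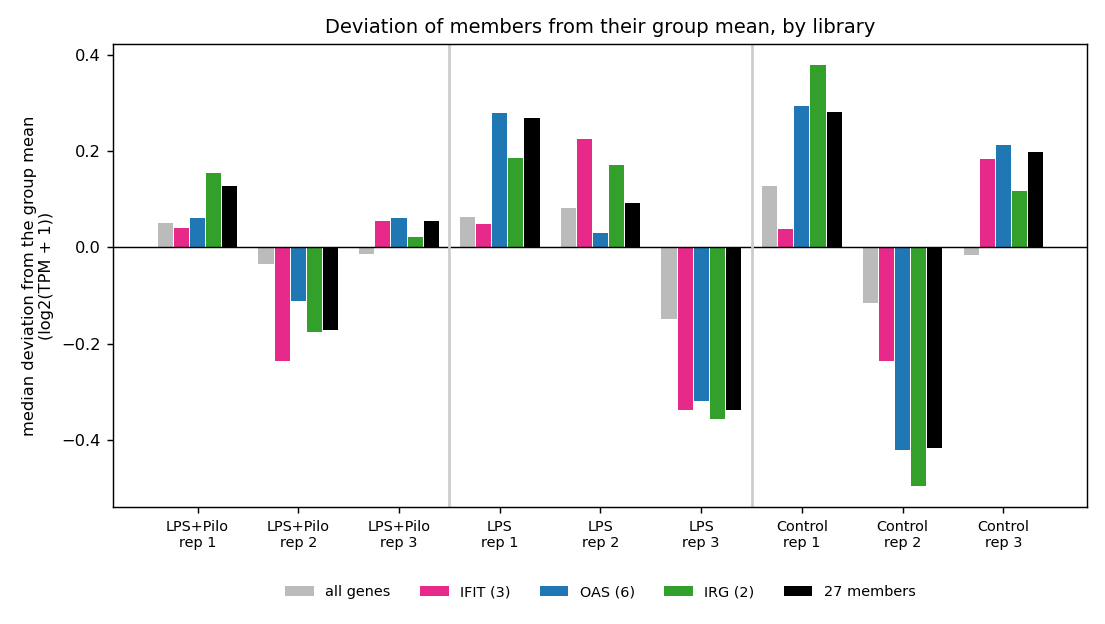
Median deviation of each library from its own group mean on the log2(TPM + 1) scale (vertical axis) for all 11260 tested genes, the 3 IFIT, 6 OAS and 2 IRG genes and all 27 tested members; bars start at 0. LPS+Pilo replicate 2, LPS replicate 3 and Control replicate 2 lie below 0 in every set, and the members' bars (-0.17, -0.34 and -0.42) are longer than those of all genes (-0.04, -0.15 and -0.12).

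Deviations also differed by transcript length. Among tested genes with a GENCODE M21 transcript length (95.7% of them), the longest 25%, from 4594 bases up, had a median deviation of -0.28 in LPS replicate 3 and -0.21 in Control replicate 2, while the shortest 25%, up to 1939 bases, had -0.01 in both. In LPS+Pilo replicate 2 both length classes were at -0.03. In LPS replicate 2 and Control replicate 1 the longest genes deviated upwards, by 0.17 and 0.24, and the shortest by 0.02 and 0.01. Of the 27 tested members, 2 were among the longest and 8 among the shortest. The part of length in the members' deviations was not tested.

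The members had a wide replicate spread. The residual SD of the fit had a median of 0.33 over the members, against 0.21 over all tested genes, and 25 of 27 members lay above that all-gene median, Oas1a and Ifi35 excepted. It was highest for Rsad2 at 0.60 and lowest for Ifi35 and Oas1a at 0.14 each. By subfamily the median was 0.25 for IFIT, 0.28 for OAS, where single genes ran over 0.14 to 0.49, and 0.34 for IRG. The added 1 TPM shrinks the SD of genes at a few TPM, such as IFIT, so these medians do not rank the subfamilies. By group, the members' median SD was 0.17 in LPS+Pilo, 0.33 in LPS and 0.41 in Control, against 0.12, 0.21 and 0.20 over all genes. With LPS replicate 3 and Control replicate 2 both left out, a setting chosen after seeing the data, the members' median residual SD was 0.18. In that setting 9 members were called higher in LPS against Control, with Oasl1 and Rsad2 added (limma adjusted p = 0.0482 and 0.0279), beside 419 of all 11115 genes then tested. In LPS+Pilo against LPS 0 members and 0 genes were called, and in LPS+Pilo against Control 5 members were higher, with Isg20 added (0.0393), beside 552 genes.

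**Figure D4:**
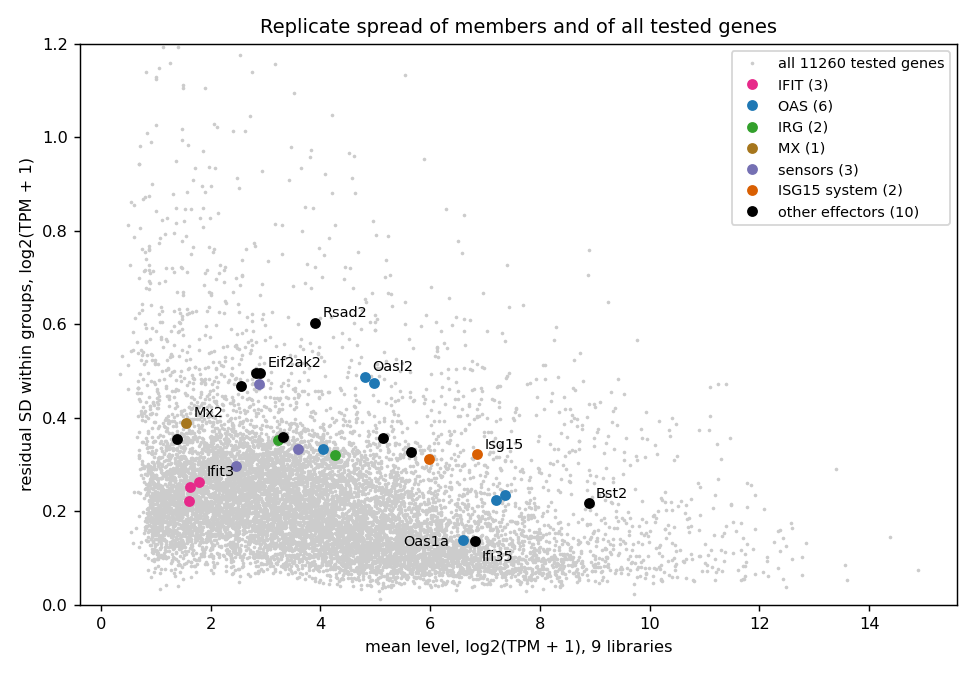
Residual SD within groups (vertical axis) against mean level over the 9 libraries (horizontal axis), both on the log2(TPM + 1) scale, for all 11260 tested genes in grey and the 27 tested members in colour by subfamily or role; 109 genes lie above the top of the axis. Rsad2 is the highest member at 0.60, and Ifi35 and Oas1a are the lowest at 0.14.

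Upstream of the effectors, the interferon genes themselves were hardly seen. Ifnb1, encoding interferon beta, had 0.21, 0 and 0.24 TPM in LPS+Pilo, 0.10, 0.66 and 0.39 TPM in LPS, and 0.28, 0 and 0.19 TPM in Control, and 0 of 11 interferon genes reached the level needed for a test. None of 7 receptor and kinase genes passed in limma in any of the 3 comparisons. An unadjusted p under 0.05 was reached by 2, 0 and 2 in LPS against Control, LPS+Pilo against LPS and LPS+Pilo against Control. Over all tested genes, 22.7%, 6.76% and 2698 of 11260 reached it in the same comparisons. Of the 7 receptor and kinase genes, Ifnar1 had 7.93 ± 0.99 TPM in LPS+Pilo, 10.02 ± 1.44 TPM in LPS and 10.8 ± 2.75 TPM in Control (SD, n = 3 each). It did not reach that unadjusted p in any comparison. The interferon gamma receptor gene Ifngr1 had 6.19 ± 0.51 TPM in LPS+Pilo, 6.22 ± 1.36 TPM in LPS and 9.19 ± 1.57 TPM in Control.

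Of 9 tested transcription factor genes, 0 passed in limma with LPS (2 had an unadjusted p under 0.05), 0 in LPS+Pilo against LPS (0 at that p) and 1 in LPS+Pilo against Control (4 at that p). That was Irf7, the interferon regulatory factor that amplifies type I interferon. Of all tested genes, 4.12% were called higher with LPS and 4.85% in LPS+Pilo against Control. The unadjusted p was reached by 22.7% and 2698 of 11260 in these comparisons. At that p, Irf7 was higher and Irf5 lower with LPS. In LPS+Pilo against Control, Irf7 was higher, and Irf1 (-0.67), Irf5 (-0.27) and Irf8 (-0.27) were lower. Irf7 had 199, 194 and 205 TPM in LPS+Pilo, 249, 183 and 141 TPM in LPS, and 129, 57.6 and 110.3 TPM in Control. Neither treated group overlapped Control, and the log2 fold changes were 1.08 ± 0.28 for LPS+Pilo (limma adjusted p = 0.0392) and 0.98 ± 0.28 for LPS (0.0683). Stat2 averaged 4.03, 6.06 and 5.02 TPM and Irf9 averaged 16.3, 19.7 and 19.4 TPM in LPS+Pilo, LPS and Control, and neither passed in any comparison.

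In the TLR4 branch, 2 of 10 tested genes rose with LPS and with LPS+Pilo relative to Control, beside 4.12% and 4.85% of all tested genes. Cd14, the co-receptor that hands LPS to TLR4, had 334, 318 and 325 TPM in LPS+Pilo, 393, 319 and 256 TPM in LPS, and 149, 114 and 131 TPM in Control. Ikbke, a kinase that activates interferon regulatory factors, had 13.2, 9.77 and 13.6 TPM, 14.3, 13.8 and 13.1 TPM, and 7.65, 6.34 and 6.71 TPM in the same groups. Both were clear of Control in every treated library. None of 4 ISG15 conjugation genes passed, and 0 had an unadjusted p under 0.05 in any comparison. Of 6 tested feedback inhibitors only Socs3, which blocks cytokine receptor kinases, passed relative to Control, and it was higher. Its log2 fold changes were 1.72 ± 0.16 in LPS+Pilo and 1.89 ± 0.16 in LPS (limma adjusted p = 0.000188 and 0.000123). The shares of all tested genes called higher were again 4.12% with LPS and 4.85% with LPS+Pilo. With LPS, 4 of the 6 feedback inhibitors had an unadjusted p under 0.05, against 22.7% of all tested genes. These were Socs3, Socs1 and Ptpn2, which were higher, and Irf2bp2, which was lower. In LPS+Pilo against LPS it was 1, against 6.76%, and in LPS+Pilo against Control 2, against 2698 of 11260.

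A list of 36 other tested interferon-stimulated genes, chosen like the members with earlier results of these data known, had 7 genes called higher with LPS, 0 in LPS+Pilo against LPS (4 had an unadjusted p under 0.05) and 4 in LPS+Pilo against Control, and 0 called lower. The shares over all tested genes were 4.12% called higher with LPS, 6.76% at that unadjusted p in LPS+Pilo against LPS, and 4.85% called higher in LPS+Pilo against Control. The chemokine gene Cxcl10 had 39.4, 32.8 and 39.2 TPM in LPS+Pilo, 76.2, 56.0 and 40.3 TPM in LPS, and 13.3, 7.61 and 11.4 TPM in Control. Ifitm3, a membrane protein that blocks virus entry, had 978, 1058 and 995 TPM in LPS+Pilo, 1171, 982 and 819 TPM in LPS, and 497, 286 and 413 TPM in Control. All treated libraries exceeded all Control libraries for both. Lgals9, which encodes galectin-9, also rose relative to Control in LPS+Pilo (0.93 ± 0.16) and LPS (0.88 ± 0.16), Ifi211 rose with LPS (1.27 ± 0.27), and the apolipoprotein gene Apol9a rose in LPS+Pilo relative to Control (0.80 ± 0.21).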

How the data were processed

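The authors deposited 1 table of TPM values for 55906 genes in 9 libraries, rounded to 2 decimals and summing to about the same total in each, so a rise in abundant genes lowers the rest. Build GRCm39 and the tools STAR 2.7.1a, fastp 0.19.5 and DESeq2 1.24.0 are named in the submitters' processing notes. No source used here states the program behind the TPM, its annotation or strand setting, or how reads with several matches were treated, so overlapping, antisense and paralogous genes are uncertain. Depth is unknown, and precision rests on the spread of 3 libraries per group.

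Symbols came from GENCODE M21 by Ensembl identifier. The 11260 genes that reached 1 TPM in 3 libraries or more were fitted as log2(TPM + 1), which understates changes of low genes, in limma 3.58.1 under R 4.3.3. The model had a mean for each group, a variance trend and 6 residual degrees of freedom. Tests were two-sided with Benjamini-Hochberg adjustment over all 11260 genes, called under 0.05. The fit was tested on simulated data. Members, lists and tests were chosen with earlier results of these data known.

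Values per library are given for members called in any comparison, the highest tested member of each subfamily or role, and the members nearest the filter on either side. Ifit1, Ifit2 and Usp18 were added after their values were seen. Of the other lists, up to 4 called genes each are named per comparison, and Ifnb1, Ifnar1, Ifngr1, Stat2, Irf7 and Irf9 always. A further gene of that rule is not reported here. Alternatives covered the pseudocount, filter, scaling, libraries fitted, variance model, a replicate block and each library left out. Paralogs were compared by 100-base words shared between GENCODE M21 transcripts in place of a planned comparison of proteins, which was not run. Promoters came from RefSeq, build GRCm38.p6, which is not the build of the deposited table.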

Additional observations from a re-analysis of the deposited data

How the results depend on the processing

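In LPS against Control, 3 members passed with no filter and 3 with only the 2 groups fitted, against 7, and 2 to 10 with 1 library left out. Genes called in all were 1516 with quantile normalization, 486 with only the 2 groups fitted and 414 to 1020 with 1 library left out, against 874. In LPS+Pilo against LPS, genes called were 1 with no filter, 1 at a mean of at least 5 TPM, 2 with median-of-ratios scaling, 1 with quantile normalization, 3 with only the 2 groups, 3 without the trend and 0 to 6 with 1 library left out, against 5. In LPS+Pilo against Control, 2 members passed with no filter, 6 with median-of-ratios scaling, 6 with quantile normalization and 2 to 6 with 1 library left out, against 4. Genes called there were 1726 with quantile normalization and 642 to 1286 with 1 library left out, against 1143. The cause was not tested. Differences of some members that passed no test there changed sign, most of them near 0 but also Ddx58 (0.33) and Oas3 (-0.24). With 1 library left out the ranges of log2 difference were, for LPS against Control, Igtp -0.116 to 0.408. For LPS+Pilo against LPS they were Oas1a -0.044 to 0.110, Oas1g -0.076 to 0.156, Oas2 -0.324 to 0.005, Oas3 -0.560 to 0.029, Isg20 -0.334 to 0.023, Eif2ak2 -0.460 to 0.205, Bst2 -0.109 to 0.092, Xaf1 -0.022 to 0.117 and Ifi35 -0.019 to 0.090. For LPS+Pilo against Control they were Ifit1 -0.085 to 0.168, Ifit2 -0.203 to 0.049, Ifit3 -0.123 to 0.145, Igtp -0.486 to 0.038, Irgm1 -0.168 to 0.184, Ddx58 -0.011 to 0.612, Dhx58 -0.281 to 0.133, Cmpk2 -0.165 to 0.350 and Parp14 -0.294 to 0.268. With quantile normalization Bst2 was at -0.021 in LPS+Pilo against LPS, and Ifit1 and Parp14 at -0.010 each in LPS+Pilo against Control. With Control replicate 2 and LPS replicate 3 both left out, a setting chosen after seeing the data, the members' median residual SD was 0.179, against 0.333, and 0 genes were called in LPS+Pilo against LPS. Oas1a, Oas1g, Bst2 and Xaf1 then lay at -0.044, -0.076, -0.109 and -0.006 in LPS+Pilo against LPS, and Ifit1, Irgm1, Ddx58, Cmpk2 and Parp14 at -0.039, -0.168, -0.011, -0.165 and -0.294 in LPS+Pilo against Control. The labels do not say whether replicate numbers pair the libraries. Same-numbered libraries deviated together at r of -0.225 to 0.165 over 9 pairs, of which 2 were over 0.1. Deviations from means of 3 libraries cannot settle the pairing. With the replicate block the members' median residual SD was 0.306, against 0.333. With the replicate block, 8, 0 and 6 members and 808, 1 and 1064 genes were called in the 3 comparisons.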

Other observations

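Mx1, the nuclear member of the MX pair, lay under the filter. It had 0.09, 0.03 and 0.08 TPM in LPS+Pilo, 0.36, 0.17 and 0.17 TPM in LPS, and 0.51, 0.46 and 0.59 TPM in Control. The Control libraries were the highest and the LPS+Pilo libraries the lowest, with no overlap between any of the groups. It was chosen after its values were seen and was not tested.

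Among the other interferon-stimulated genes, Ifi211 and the Schlafen gene Slfn2 were also singled out after their values were seen. Ifi211 had 3.44, 2.14 and 3.57 TPM in LPS+Pilo, against 6.94, 5.98 and 6.32 TPM in LPS. Slfn2 had 78.2, 52.0 and 69.5 TPM in LPS+Pilo, against 103, 102 and 91.0 TPM in LPS. Neither gene overlapped between these groups, and neither difference passed in limma. Of all tested genes, 6.63% were lower in LPS+Pilo than in LPS without overlap. Tor3a and Phf11d of the same list were also lower without overlap.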
